A study of Homo sapiens with 6 samples.

Results

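The LSD1-CoREST corepressor complex was examined through 8 genes, KDM1A, RCOR1, RCOR2, RCOR3, HDAC1, HDAC2, HMG20B and PHF21A, found by their gene names among the 58735 genes of the count table. All 8 had 1 row each and passed the filter on low counts, which left 17514 genes for testing. RNA-Seq was performed on H1155, a neuroendocrine non–small cell lung cancer line, in untreated cultures kept in DMEM with 10% serum. There were 3 libraries labelled WT and 3 labelled GFI1-KO, whose cells had been edited with CRISPR/Cas9 and pairs of guide RNAs directed at the promoter region of GFI1 and then sorted as single GFP-positive clones. How many clones lie behind the 3 GFI1-KO libraries is not given in the sources used here, and nothing says that libraries of a group came from separate cultures, so that p-values measure the spread between these libraries, which may be technical. GFI1 encodes a zinc finger repressor, and the comparison asked how RNA of its corepressor differed between the genotypes.

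In LSD1-CoREST, the flavin-dependent demethylase LSD1, encoded by KDM1A, removes methyl groups from H3K4, while the histone deacetylases HDAC1 and HDAC2 remove acetyl groups from histone tails. A CoREST scaffold protein, encoded by RCOR1, RCOR2 or RCOR3, joins the demethylase to the deacetylase and lets it act on nucleosomes. GFI1 recruits LSD1 through its N-terminal SNAG domain, a short stretch that resembles the tail of histone H3 and is shared with the SNAIL, Scratch and INSM families. The neuronal repressor REST recruits the same complex through CoREST.

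In raw counts, GFI1 itself stood at 153, 106 and 125 in WT and at 174, 188 and 170 in GFI1-KO. The RNA count of the edited gene was thus no lower in the libraries labelled GFI1-KO (where along it the reads lie cannot be seen in a total per gene), and every direction below rests on the labels. The study also examined GFI1 protein in its edited H1155 cells by immunoblot, which RNA counts do not measure. It describes those cells as GFI1-negative. Library totals lay between 14882914 and 17692882 counts, at which 3 counts corresponded to between 0.170 and 0.202 CPM. Of the neuroendocrine markers 9 of 10 were tested, 5 were higher (SYP and NCAM1 among them) and 4 were lower (DDC among them). With the GC and length offsets described below, 3 were higher and 5 lower. The median log2 fold change was then -0.12, against 0.14 without them, so that the balance depends on the fit. DDC fell from 237 ± 23.3 normalized counts in WT to 24.6 ± 11.6 in GFI1-KO (SD, n = 3 each). The summed normalized counts of the list, taken without the offsets, were 28256 to 28828 in WT and 34971 to 35460 in GFI1-KO. Within that sum SYP alone rose from 4221 ± 55.5 to 9759 ± 217 (SD, n = 3 each). Of the markers of other cell types, the summed normalized counts of the fibroblast list (5 of 8 tested, 2 higher and 3 lower, DCN at 0 in every library) were 3143 to 3230 in WT and 2238 to 2313 in GFI1-KO. COL1A2, the most abundant, made up most of that sum and fell from 2912 ± 49.6 to 2008 ± 43.1, and PDGFRB fell from 141 ± 1.41 to 14.8 ± 1.17. In contrast, COL3A1 rose from 2.49 ± 0.721 to 139 ± 18.8 and PDGFRA from 1.08 ± 1.11 to 14.8 ± 1.54 (SD, n = 3 each). PDGFRA is uncertain, since 15.4% of the 50-base words of its transcripts are also found in other genes. The sums of the endothelial list (3 of 6 tested, with PECAM1 lower, CLDN5 higher and CDH5 not called) were 456 to 512 and 282 to 291, and those of the leukocyte list (1 of 8 tested, 0 called) 67.5 to 85.0 and 64.9 to 70.1. The part of these shifts in the members' changes was not tested.

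GFI1 binds DNA at sites that hold the core AATC. To show where this core stands in the members' promoters, it was searched for on both strands (AATC or GATT) in the RefSeq promoter windows of GRCh38.p14, which run from 250 bases before to 50 bases after a transcript's start. Of the 8 genes, 7 matched 10 windows, and the core lay in windows of 5 of them (HDAC1, HDAC2, HMG20B, RCOR1 and RCOR3) but in none of KDM1A or PHF21A. The same letters were found in 69.0% of all 35116 windows. Each of the following stretches lies wholly upstream of the gene in the deposited coordinates, and capitals mark the core.
HDAC1: tgcgcaagctGATTggctggagcg
RCOR1: tggctgtccaAATCccaccagagc
HMG20B: actcgctcccGATTggtcccgagc
The HDAC1 stretch is chr1:32291994-32292017, on the plus strand, with the core on the other strand at position -79 from the start. The RCOR1 stretch is chr14:102592499-102592522, on the plus strand, with the core on the gene's strand at position -140. The HMG20B stretch is chr19:3572695-3572718, on the plus strand, with the core on the other strand at position -239. Positions are counted from the RefSeq transcript start, which for HMG20B lies downstream of the gene's start in the deposited coordinates. In HDAC1 and HMG20B the letters also overlap a CCAAT box (CCAAT or ATTGG), and in RCOR1 they do not. The longer AAATCA was found in 13.2% of all windows and TAAATCAC in 0.624%, and neither was found in a member's window. Such matches are a description of letters and not of binding.

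Of the 8 members, 5 were lower in the libraries labelled GFI1-KO (KDM1A, RCOR1, RCOR2, RCOR3 and HDAC2), 2 were higher (HDAC1 and HMG20B) and PHF21A was not called, by edgeR's quasi-likelihood F test (Benjamini-Hochberg adjusted p of at most 0.05). This is 87.5% of the members, against 72.4% of all tested genes, of which 36.5% were higher and 35.9% lower. The groups did not overlap for 7 of the 8, against 74.4% of all tested genes. With so many genes called, the share called is close to the background, and the sizes and directions of the single genes carry the description. The median log2 fold change was -0.34 over the members and 0.00 over all tested genes. Beyond an absolute log2 fold change of 0.5, a minimum added after the data had been seen, KDM1A, RCOR2 and HDAC2 were lower and HMG20B was higher, at which 44.4% of tested genes were called (24.1% higher and 20.2% lower). In bulk libraries, a change in the share of cells and a change in RNA per cell cannot be told apart.

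**Figure D1:**
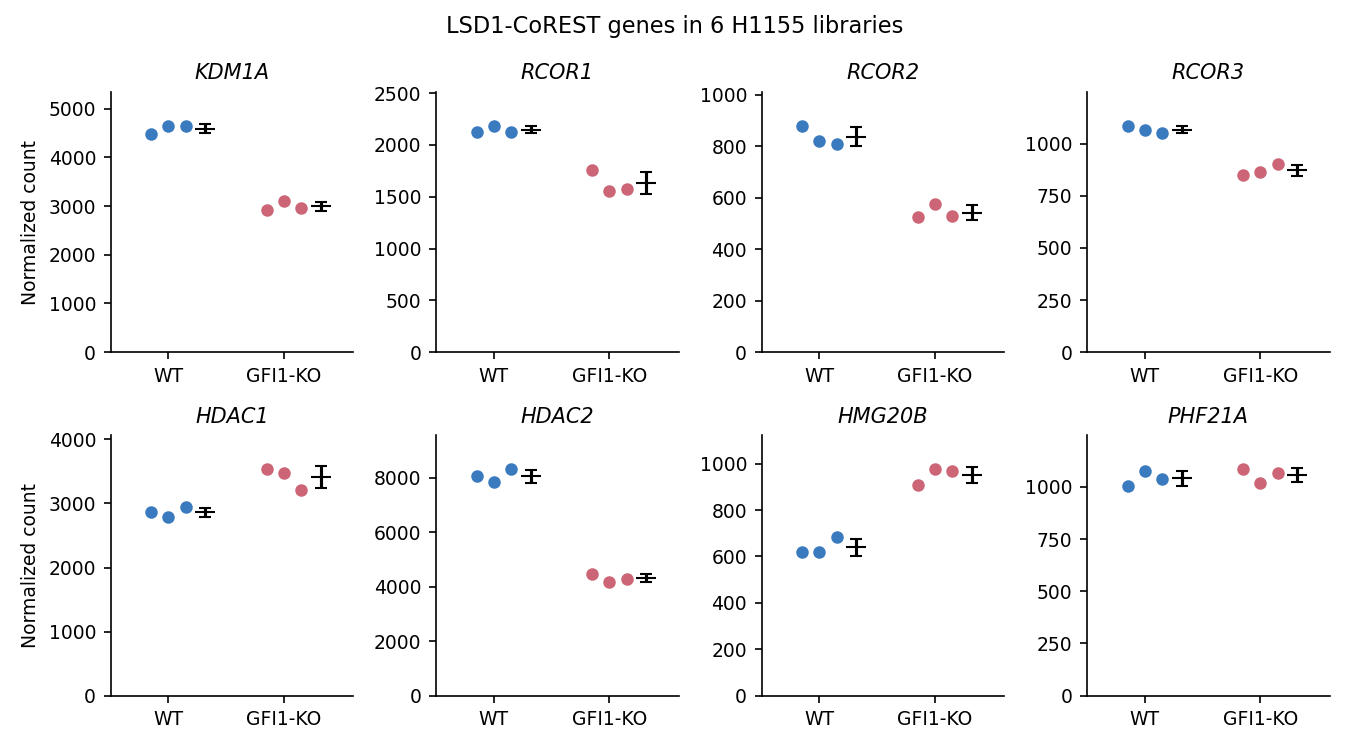
Normalized counts (y axis, from 0) of the 8 members in each of the 3 WT and 3 GFI1-KO libraries, as points, with the group mean and SD. HDAC2 fell from a mean of 8061 to 4307 and KDM1A from 4585 to 2995, whereas the points of PHF21A overlap.

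Fold changes in these libraries moved with the base composition of the transcripts. Across 17415 genes, Spearman's rho between GC content and log2 fold change was 0.59 (genes are not independent replicates). In a second edgeR fit, offsets for GC content and length took this trend out of each library and left a rho of 0.03. Whether the trend is biological or technical was not tested, and the value under these offsets is therefore given for each member. With them, 60.6% of tested genes were called (32.6% higher and 28% lower), and of the members 3 were higher (RCOR3, HDAC1 and PHF21A) and 4 lower, with a median of -0.13. KDM1A, RCOR1, RCOR2 and HDAC2 were lower in both fits, as were 20.5% of all tested genes, and HDAC1 was higher in both, as were 23.2%. RCOR3 changed sign between the fits, as did HMG20B, which was not called with the offsets.

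**Figure D2:**
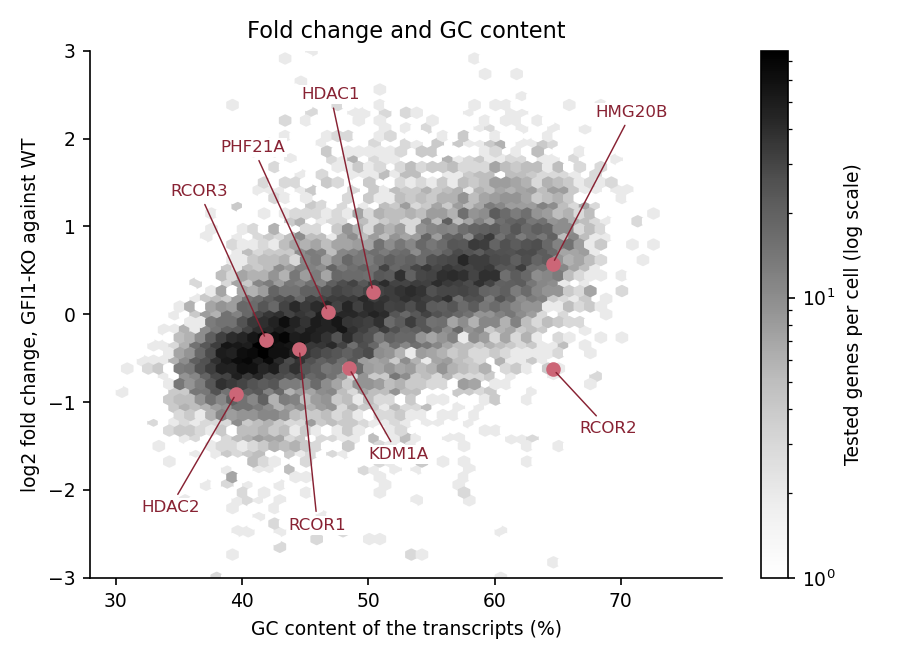
Log2 fold change, GFI1-KO against WT (y axis, drawn from -3 to 3), against the GC content of the transcripts in percent (x axis), with all tested genes shaded by their number per cell on a log scale and the 8 members as labelled points. RCOR2 and HMG20B share a GC content of 64.6% and lie at -0.63 and 0.57, and HDAC2 has the lowest GC content of the members, 39.5%.

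KDM1A (ENSG00000004487, chromosome 1, from 23019443 to 23083689, plus strand, in the deposited GRCh38 coordinates used for all members) encodes the demethylase itself. Its normalized counts were 4477, 4634 and 4644 in WT and 2919, 3103 and 2965 in GFI1-KO. Every GFI1-KO library lay below every WT library, by more than the spread within either group. The mean was 4585 ± 93.7 in WT and 2995 ± 95.7 in GFI1-KO (SD, n = 3 each), a 1.53-fold decrease (log2 fold change -0.61, standard error (SE) 0.03, edgeR adjusted p = 1.5e-14). With the offsets the log2 fold change was -0.55 (adjusted p = 4.4e-13), and without them it lay between -0.64 and -0.59 when single libraries were left out. KDM1B, which encodes the only close relative of LSD1 and has no CoREST partner, was 1057 ± 20.6 in WT and 829 ± 49.3 in GFI1-KO (SD, n = 3 each; log2 fold change -0.35, adjusted p = 2.1e-06), but -0.03 (adjusted p = 0.70) with the offsets. Per length, KDM1A made up 81.7% ± 0.554 of the summed FPKM of the KDM1A-KDM1B pair in WT and 78.8% ± 1.21 in GFI1-KO (SD, n = 3 each). Both shares were computed without the offsets, with which KDM1A stayed lower and KDM1B was not called.

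RCOR1 (ENSG00000089902, chromosome 14, from 102592661 to 102730576, plus strand) encodes CoREST1, the scaffold first found as a cofactor of REST. It had 2129, 2183 and 2122 normalized counts in WT and 1756, 1559.8 and 1578 in GFI1-KO. The groups did not overlap, and the first GFI1-KO library was the highest of its group. The log2 fold change was -0.39 (SE 0.04, edgeR adjusted p = 9.4e-09), and -0.12 (adjusted p = 0.019) with the GC and length offsets.

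RCOR2 (ENSG00000167771, chromosome 11, from 63911221 to 63916844, minus strand) encodes CoREST2, known from embryonic stem cells and the developing nervous system. It had 879, 821 and 810.3 normalized counts in WT and 523, 574 and 527 in GFI1-KO, without overlap between the groups. The log2 fold change was -0.63 (SE 0.06, edgeR adjusted p = 6.9e-10). RCOR2 transcripts have more G and C than those of 96.3% of tested genes, and with the offsets the log2 fold change was -1.38 (SE 0.06, adjusted p = 9.8e-16). In that fit 3.85% of tested genes had a lower value than RCOR2, against 16.3% without offsets.

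RCOR3 (ENSG00000117625, chromosome 1, from 211258377 to 211316385, plus strand) encodes the third scaffold, CoREST3, which supports demethylation on nucleosomes less well than the others. It had 1084, 1066 and 1051 normalized counts in WT and 850.0, 862 and 903 in GFI1-KO. The groups did not overlap, and the log2 fold change was -0.29 (SE 0.05, edgeR adjusted p = 1.2e-05). With the GC and length offsets the direction turned, to 0.16 (adjusted p = 0.0080), so that its direction depends on the fit.

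The scaffolds together had a summed FPKM of 46.7 ± 0.878 in WT and 33.4 ± 0.617 in GFI1-KO (SD, n = 3 each). Their shares of that sum, computed without the offsets, moved by a few points. RCOR1 held 45.0% ± 1.03 in WT and 47.2% ± 2.39 in GFI1-KO, RCOR2 39.7% ± 1.06 and 35.5% ± 2.05, and RCOR3 15.3% ± 0.0577 and 17.2% ± 0.867 (SD, n = 3 each). The log2 ratio of RCOR2 to RCOR1, which does not depend on the scaling between libraries, was -0.18 ± 0.07 in WT and -0.41 ± 0.15 in GFI1-KO, a difference of -0.23 (p = 0.1 by a two-sided exact permutation test, the smallest that 3 libraries against 3 allow), and -1.26 with the offsets. The log2 ratio of RCOR3 to RCOR1 was -1.56 ± 0.03 and -1.45 ± 0.13, a difference of 0.10 (exact two-sided permutation test, p = 0.4). The libraries of the groups overlapped in this ratio, and with the offsets the difference was 0.27.

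HDAC1 (ENSG00000116478, chromosome 1, from 32292086 to 32333635, plus strand) and HDAC2 (ENSG00000196591, chromosome 6, from 113933028 to 114011308, minus strand) encode paralogous class I deacetylases that can each occupy the complex. HDAC2 had 8050.0, 7829 and 8306 normalized counts in WT and 4462, 4162 and 4296 in GFI1-KO. Every GFI1-KO library was far below every WT library. The decrease was 1.87-fold, from 8061 ± 239 (SD, n = 3) to 4307 ± 150.5 (SD, n = 3), with a log2 fold change of -0.90 (SE 0.03, edgeR adjusted p = 4.9e-18), the largest among the members in this fit. HDAC2 transcripts have low GC content, 39.5%, and with the offsets the log2 fold change was -0.32 (adjusted p = 2.4e-09). HDAC1 had 2861, 2788 and 2937 normalized counts in WT and 3530.4, 3483 and 3215 in GFI1-KO. It moved the other way, with no overlap between the groups and a log2 fold change of 0.25 (SE 0.04, edgeR adjusted p = 1.7e-06), or 0.17 (adjusted p = 2.5e-04) with the offsets.

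Per length, HDAC1 held 58.1%, 58.2% and 58.0% of the summed FPKM of HDAC1 and HDAC2 in the WT libraries and 75.5%, 76.6% and 74.5% in the GFI1-KO libraries. The WT libraries were nearly alike, and the groups were far apart relative to their spread. The log2 ratio of HDAC2 to HDAC1 was -0.47 ± 0.01 in WT and -1.63 ± 0.08 in GFI1-KO (SD, n = 3 each), a difference of -1.16 or 2.23-fold (p = 0.1 by the same exact test, the smallest possible). With the GC and length offsets the difference was -0.49, and with the length of the canonical transcript in place of the deposited gene length HDAC1 held 62.0% and 78.4%. The summed FPKM of the pair was 75.5 ± 2.08 in WT and 68.3 ± 2.70 in GFI1-KO (SD, n = 3 each).

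**Figure D3:**
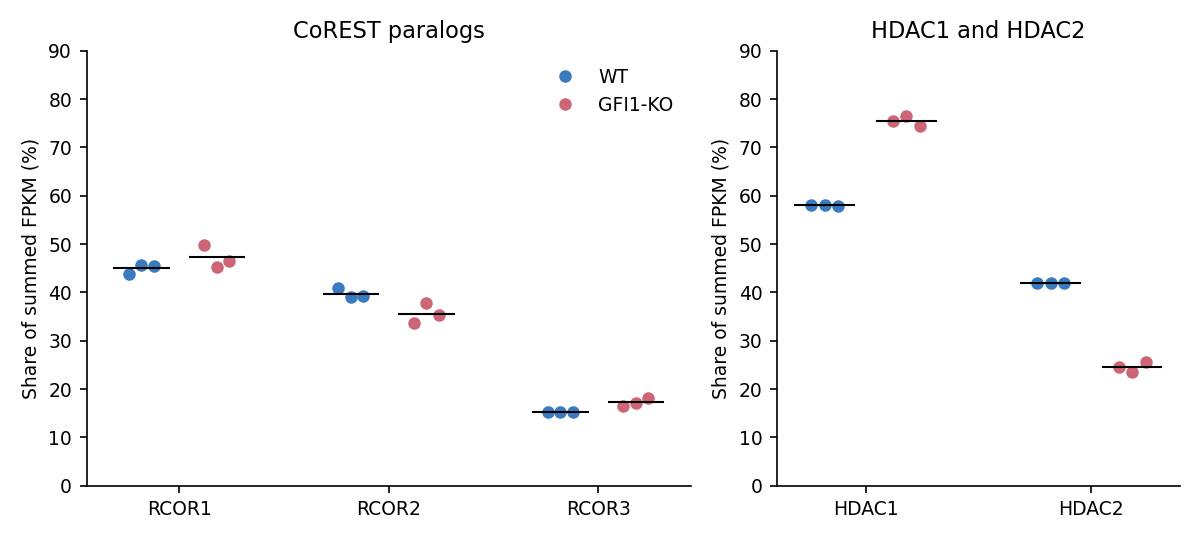
Share of the summed FPKM (y axis, percent) held by each of RCOR1, RCOR2 and RCOR3 (left) and by HDAC1 and HDAC2 (right) in each WT and GFI1-KO library, as points, with a line at the group mean. HDAC1 held 58.1% ± 0.0912 of its pair in WT and 75.5% ± 1.03 in GFI1-KO (SD, n = 3 each), while the RCOR shares moved by less than 5 points. Shares were computed without the GC and length offsets. With them, the log2 ratio of RCOR2 to RCOR1 differed by -1.26 and that of HDAC2 to HDAC1 by -0.49.

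HMG20B (ENSG00000064961, chromosome 19, from 3572777 to 3579088, plus strand) encodes BRAF35, an HMG-box subunit of the complex that binds DNA. It had 618, 619 and 682 normalized counts in WT and 910.0, 975 and 969 in GFI1-KO, without overlap. The log2 fold change was 0.57 (SE 0.06, edgeR adjusted p = 1.7e-09), but -0.14 (adjusted p = 0.059) with the GC and length offsets, so that its direction depends on that choice. HMG20B also overlaps MFSD12, on the opposite strand, by 1514 bases, and MFSD12 had 696, 652 and 676 counts in WT and 1221, 1161 and 1232 in GFI1-KO. Since the strand setting of the counting is not given in the sources used here, reads of the pair cannot be told apart in the overlap and the value is uncertain.

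PHF21A (ENSG00000135365, chromosome 11, from 45929323 to 46121178, minus strand) encodes BHC80, whose PHD finger reads H3K4 without methyl groups, the product of LSD1. It had 1004, 1078 and 1039 normalized counts in WT and 1083, 1019 and 1067 in GFI1-KO. The groups overlapped, and the log2 fold change of 0.02 (SE 0.05, edgeR adjusted p = 0.70) did not exceed the spread. With the offsets it was 0.20 (adjusted p = 7.1e-04). Its paralog PHF21B had 1384 ± 69.5 normalized counts in WT and 1949 ± 83.8 in GFI1-KO (SD, n = 3 each; log2 fold change 0.49, adjusted p = 2.4e-10), but -0.01 (adjusted p = 0.92) with the offsets. PHF21B held 72.1% ± 0.833 of the summed FPKM of the pair in WT and 78.2% ± 0.426 in GFI1-KO (SD, n = 3 each). These shares were computed without the offsets, with which PHF21A was higher and PHF21B was not called.

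**Figure D4:**
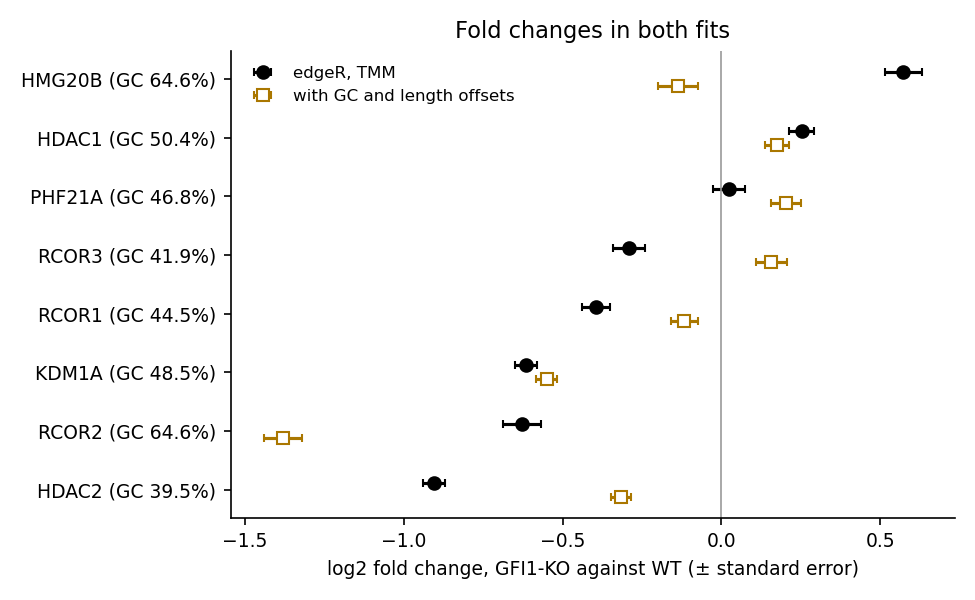
Log2 fold change, GFI1-KO against WT (x axis), of each member (y axis) in the edgeR fit and in the fit with GC and length offsets, with bars of 1 standard error. KDM1A stays at -0.61 and -0.55, RCOR2 moves from -0.63 to -1.38, and RCOR3 and HMG20B cross 0.

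Ranked by FPKM, the levels in WT ran from KDM1A (51.1 ± 1.07) through HDAC1 (43.8 ± 1.14), HDAC2 (31.6 ± 0.941), RCOR1 (21.0 ± 0.329), RCOR2 (18.5 ± 0.802), HMG20B (10.1 ± 0.581) and RCOR3 (7.12 ± 0.109) to PHF21A (5.64 ± 0.202; SD, n = 3 each), and no neighbours overlapped. In GFI1-KO, HDAC1 (51.6 ± 2.54) stood above KDM1A (33.0 ± 1.06). HDAC2 (16.7 ± 0.575), RCOR1 (15.8 ± 1.04) and HMG20B (14.8 ± 0.571) followed, with each overlapping the next, then RCOR2 (11.9 ± 0.625), and RCOR3 (5.75 ± 0.186) and PHF21A (5.67 ± 0.179), which overlapped each other (SD, n = 3 each). KDM1A thus had the highest level in WT and HDAC1 in GFI1-KO, with either length. With the canonical transcript length, HMG20B stood above RCOR1 in WT and above HDAC2 in GFI1-KO. RCOR3 then stood above RCOR2 in GFI1-KO, although the libraries of these genes overlapped.

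A list of 13 genes held those whose products join LSD1-CoREST or recruit it, and paralogs of members, such as KDM1B and PHF21B. Of the 13, 5 were higher in GFI1-KO, 5 were lower and 3 were not called, with a median log2 fold change of -0.07. Among all tested genes 36.5% were higher and 35.9% lower, which is the background for this list and those below. The lists were chosen with earlier results of these data known. ZMYM2, a zinc finger subunit that binds SUMO, fell from 2831 ± 101 to 1646 ± 64.8 normalized counts (log2 fold change -0.78, adjusted p = 2.3e-15), or by 0.11 (log2) with the offsets. CTBP1, a corepressor that bridges repressors to LSD1, fell from 1651 ± 64.9 to 1045 ± 59.9 (log2 fold change -0.66, adjusted p = 3.4e-12), and the decrease was greater with the offsets, at -1.19 (adjusted p = 5.7e-17; SD, n = 3 each). Its paralog CTBP2 had a log2 fold change of -0.13 (adjusted p = 0.022), which DESeq2 did not call (adjusted p = 0.0945) and which was lost without WT replicate 2, GFI1-KO replicate 2 or GFI1-KO replicate 3. GSE1, a further subunit, was lower by a small amount (log2 fold change -0.21, adjusted p = 1.4e-06, and -0.44 with the offsets).

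Among the recruiters, REST had 215, 174 and 169 normalized counts in WT and 278, 264 and 264 in GFI1-KO, without overlap (log2 fold change 0.53, adjusted p = 4.7e-05, and 1.07 with the offsets). ZEB1, a repressor of epithelial genes, rose from 621 ± 32.7 to 933 ± 30.6 (log2 fold change 0.59, adjusted p = 9.3e-10, and 1.07 with the offsets). RREB1, a zinc finger factor downstream of RAS, rose from 813 ± 28.2 to 1248 ± 8.34 (log2 fold change 0.62, adjusted p = 1.9e-11, and 0.40 with the offsets; SD, n = 3 each). All 3 stayed higher in both fits. SFMBT1 rose by a log2 fold change of 0.19 (adjusted p = 0.0031), and 11.0% of its transcripts' 50-base words are also found in other genes, so that its count is uncertain. ZMYM3 (-0.07, adjusted p = 0.091) and ZNF217 (0.09, adjusted p = 0.094) were not called, but were with the offsets, at -0.29 and 0.42.

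Of the 9 genes of SNAG-domain factors, which dock on LSD1 as GFI1 does, 8 were tested, 6 were higher, 1 was lower and 1 was not called (median log2 fold change 0.87). The shares over all tested genes were 36.5% higher and 35.9% lower. SNAI2, which encodes the mesenchymal factor SLUG, had 152, 196 and 139.6 normalized counts in WT and 1211, 1171 and 1281 in GFI1-KO, which gave a log2 fold change of 2.91 (adjusted p = 7.7e-21) that was 3.15 with the offsets. The neuronal factor SCRT1 rose from 511 ± 41.4 to 1169.5 ± 33.2 (SD, n = 3 each; log2 fold change 1.20, adjusted p = 1.4e-15), or by 0.41 with the offsets. INSM2 (0.97), SNAI3 (0.77) and SCRT2 (1.39) were higher at low levels, with no library above 100.4 normalized counts, SCRT2 being uncertain because 10.2% of its words are shared. With the offsets INSM2 lay at 0.50 (adjusted p = 0.018), and SCRT2 at 0.64 (adjusted p = 0.063) and SNAI3 at -0.02 (adjusted p = 0.95) were not called. SNAI3 was also not called by DESeq2 (adjusted p = 0.075) or without GFI1-KO replicate 2. INSM1, a neuroendocrine factor and the most abundant of these genes at 6974 ± 265 and 6579 ± 251 (SD, n = 3 each), overlapped between the groups, with a log2 fold change of -0.08 (adjusted p = 0.037) that was not called by DESeq2 (adjusted p = 0.051) or without WT replicate 1 or 2 or GFI1-KO replicate 2 or 3. With the offsets INSM1 lay at -0.79 (adjusted p = 2.6e-16), and of the 8 genes 3 were higher and 1 was lower. GFI1 was called higher at 0.31 (adjusted p = 0.027) but lay at -0.01 (adjusted p = 0.96) with the offsets, and was not called by DESeq2 (adjusted p = 0.13), with upper-quartile factors (adjusted p = 0.054) or without WT replicate 2 or 3 or GFI1-KO replicate 2. SNAI1 was not called. GFI1B, the paralog of GFI1, had 1, 2 and 1 counts in WT and 3, 7 and 5 in GFI1-KO and was not tested.

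Of 7 genes for other proteins known to bind GFI1 or for their relatives, 4 were higher and 2 were lower. RUNX1T1, which encodes the nuclear corepressor ETO, had 780.2, 726 and 766 normalized counts in WT and 131, 118 and 126 in GFI1-KO, which gave a log2 fold change of -2.60 (adjusted p = 5.0e-20) that was -2.50 with the offsets. Its relative CBFA2T2 fell by 0.21 (adjusted p = 7.6e-04) in the main fit. AJUBA, a LIM-domain adaptor, rose by 0.63 (adjusted p = 3.6e-09), and EHMT2, the H3K9 methyltransferase G9a, by 0.45 (adjusted p = 3.8e-10), which was 0.03 with the offsets.

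HDAC1 and HDAC2 are shared with other complexes, whose remaining subunits moved in both directions. Of 11 NuRD genes, 5 were higher and 4 lower, among them the remodeler CHD3 (log2 fold change 0.90) and MBD3 (0.72) against MBD2 (-0.51) and the histone chaperone RBBP7 (-0.39). With the offsets these lay at 0.66, 0.12, -0.49 and -0.10. Of 13 SIN3 genes, 5 were higher and 6 lower, among them BRMS1 (0.60) and SAP18 (0.56) against ARID4B (-0.57) and ARID4A (-0.50). With the offsets SAP18 lay at 0.82, and BRMS1 at -0.01, ARID4A at 0.09 and ARID4B at -0.06 were not called. ARID4B shares 12.7% of its words with other genes and is uncertain. Of 6 genes of the NCoR complex, 3 were higher and 1 lower, the latter being TBL1XR1, an exchange factor, at -0.94 (-0.27 with the offsets). GPS2 (1.94) shares 37.6% of its words with other genes and is uncertain. Of the 9 other histone deacetylase genes, 6 were higher and 1 lower, with HDAC11 at 1.06 and HDAC5 at 0.90 against HDAC9 at -1.52 (0.56, 0.39 and -1.09 with the offsets). These genes were each called at an adjusted p of at most 0.05 by edgeR.

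A further 16 genes encode other H3K4 demethylases and methyltransferases or subunits of methyltransferase complexes. Among them, 9 were higher and 6 were lower (6 and 3 with the offsets). KDM5B, a demethylase of trimethylated H3K4, fell from 1652 ± 34.8 to 746 ± 29.8 normalized counts (log2 fold change -1.15, adjusted p = 3.6e-17). The methyltransferase genes KMT2D (2966 ± 237 to 5676 ± 103, log2 fold change 0.94) and SETD1A (913 ± 16.0 to 1634 ± 21.8, log2 fold change 0.84; SD, n = 3 each) rose. These 3 kept their direction with the offsets, at -0.84, 0.56 and 0.29. DPY30 (-0.58) is uncertain, since 51.6% of its words are shared.

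Of 20 neuronal genes known as REST targets, 10 were higher and 7 lower (median 0.26), and with the offsets 5 were higher and 11 lower (median -0.22), so that the balance depends on the fit. L1CAM, a neural adhesion gene, rose from 7031 ± 101 to 18118 ± 255 normalized counts (log2 fold change 1.37) and SYP, which encodes synaptophysin, from 4221 ± 55.5 to 9759 ± 217 (log2 fold change 1.21). The glutamate receptor gene GRIA2 fell from 298 ± 36.2 to 118 ± 11.8 (log2 fold change -1.33) and SYT4 from 888 ± 48.5 to 436 ± 21.2 (log2 fold change -1.03; SD, n = 3 each). Each of the 4 kept its direction with the offsets.

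Of 13 genes known as GFI1 targets from blood cells, 11 were tested, 7 were higher, 1 was lower and 3 were not called (median 1.43, and 0.81 with the offsets). ID1, an inhibitor of basic helix-loop-helix factors, had 785, 707 and 790.4 normalized counts in WT and 5756, 5641 and 5851 in GFI1-KO (log2 fold change 2.92, adjusted p = 1.3e-26). CSF1, which encodes macrophage colony-stimulating factor, had 870.3, 893 and 802 and then 5350.4, 5378 and 5446 (log2 fold change 2.66, adjusted p = 2.8e-26). Both were far apart between the groups and stayed so with the offsets, at 2.36 and 2.27. HOXA9 (-0.28) is uncertain because 12.4% of its words are shared.

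Many genes had a pattern like that of KDM1A or HDAC2 over the 6 libraries. Of 11213 protein-coding genes that averaged at least 100 normalized counts, 582 had a Pearson r of at least 0.99 with KDM1A on the log2 scale and 1420 with HDAC2. The most alike to KDM1A were TUT4, TSPEAR, ZNF780B, ARHGAP10 and CPSF3, and the most alike to HDAC2 were AGTPBP1, ICA1L, SYCP2, MED28 and IDS. As 2 groups of 3 libraries set these values, they describe the difference between the groups and little beyond it.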

How the data were processed

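RNA-Seq of H1155 cells gave 6 libraries, 3 per genotype. The authors deposited raw counts per gene, without normalization, and beside them gene lengths and positions (the other columns hold names and annotation). According to the methods of the study, poly-A RNA was sequenced, aligned to GRCh38 with Hisat2 and counted with featureCounts, whereas the submitters' processing notes name Bowtie2, HTSeq and hg38. The annotation, strand setting and rule for multiply mapped reads are not given in the sources used here.

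Counts were tested with edgeR 4.0.16 in R 4.3.3 (TMM, filterByExpr, quasi-likelihood F test, Benjamini-Hochberg adjustment over all 17514 tested genes, adjusted p of at most 0.05, no fold minimum). To normalize, each count was divided by its library's effective size (total times TMM factor) and rescaled by the mean effective size, and FPKM was computed from count, deposited length and library total. Standard errors were taken as |log2 fold change|/√F. Offsets for GC content (GENCODE release 44 transcripts) and length came from natural splines with 5 degrees of freedom per library. Ratios were compared with exact permutation tests. Other fits used DESeq2 1.42.0, limma-voom 3.58.1, other scalings and filters, a replicate block, each library left out and an adjusted p of at most 0.01. Steps were tested on simulated data. Deviations from the group means correlated with r of -0.00628, 0.0132 and 0.0215 between same-numbered libraries, so that the numbers were not taken to pair them. No libraries were duplicates, and floors of 3 counts cover counting error only.

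The members and lists were chosen with earlier results of these data known. Named genes are the members, GFI1, the genes that join or recruit the complex or are paralogs of members, and the SNAG-domain genes. From each other list came up to 2 genes at each extreme. These average at least 100 normalized counts, are called and do not overlap between the groups. The 5 genes most correlated with KDM1A and with the member that changed most were also named. MFSD12 was named for its overlap with HMG20B, and COL3A1, PDGFRA, PDGFRB, CLDN5 and CDH5 after their values had been seen. Some genes and a ratio that these rules name are not reported here. A gene was called uncertain where over 10% of the 50-base words of its transcripts occur in other genes. Python 3.11.15 was used for tables and figures.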

Additional observations from a re-analysis of the deposited data

How the results depend on the processing

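The calls and directions of KDM1A, RCOR1, RCOR2, HDAC1 and HDAC2 held in each fit tried, and those of RCOR3 and HMG20B in each fit without the GC and length offsets. PHF21A, never called without the offsets, lay at -0.0198 with upper-quartile factors and between -0.00865 and 0.0522 with single libraries left out, as SNAI1 lay between -0.0715 and 0.183. With replicate number entered as a block, 2 members were higher and 5 lower, and no call of a named gene changed. Beyond a log2 fold change of 0.5 either way, 4229 tested genes were higher and 3545 lower, and 1 member was higher and 3 lower.

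With the GC and length offsets, alone or with the block, counts moved to 2 higher genes among the other GFI1 partners and their relatives. They also moved to 3 lower H3K4 genes, 2 lower histone deacetylase genes, 5 higher and 11 lower REST targets, 3 lower SIN3 genes and 3 higher SNAG-domain genes. The log2 differences of ratios moved to -1.26 for RCOR2 to RCOR1, 0.27 for RCOR3 to RCOR1 and -0.49 for HDAC2 to HDAC1. Directions turned for RCOR3 (0.16), HMG20B (-0.14), PHF21B (-0.00512, and -0.00546 with the block), ARID4A (0.0889, and 0.0898 with the block), BRMS1 (-0.00711, and -0.00620 with the block), GFI1 (-0.00739, and -0.00228 with the block), SNAI1 (-0.45, and -0.44 with the block) and SNAI3 (-0.0204, and -0.0303 with the block). The cause was not tested.

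In place of 1 lower SNAG-domain gene (INSM1), there were 0 with DESeq2, at a threshold of 0.01 and with no filter, and 0 to 1 with single libraries left out. There were 0 lower GFI1 targets with DESeq2. At this depth, genes under 3 counts in a library could not be compared.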
